A study of Homo sapiens with 11 samples.

Results

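Broad H3K4me3 domains were defined as the regions of the U2OS H3K4me3 list that span 4 kb or more on chromosomes 1 to 22. The rule was met by 4235 of the 24227 regions on these chromosomes, or 17.5%. The other 19992 regions are called narrower here, and the 7508 of 2 to 4 kb among them were the closest in width. The members were chosen by their measured width alone, so width and the enrichment of the same list are given as a description and support nothing.

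The series mapped a ubiquitin ligase that acts in DNA replication, with 11 samples and 1 sample per condition. Regions were deposited for 8 samples, and the other 3 are inputs. The H3K4me3, H3K9me3 and CUL4A ChIP-Seq and the origins labelled U2OS WT came from U2OS, an osteosarcoma line grown unsynchronized and untreated for the origins. CDT2 ChIP-Seq was also labelled U2OS, but the sources differ on whether these were WT cells or cells stably expressing full-length FLAG-RepID. The HCT116 lists came from a colon carcinoma line: SKP2 ChIP-Seq in WT and RepID KO cells, and origins of the RepID KO cells, a clone in which RepID was disrupted. HCT116 H3K4me3 was not analysed here, so every HCT116 list is placed on the H3K4me3 map of another cell line. The lists carry no read totals and the depth of each sample is unknown.

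H3K4me3, trimethylated lysine on the tail of histone H3, is laid down by the SET1 and MLL methyltransferases and marks the starts of active genes. Most marked stretches are short, and unusually broad ones are known from genes that define a cell type. H3K9me3 is the mark of heterochromatin and of silenced repeats. Replication starts at origins, which were mapped as short nascent strands that carry an RNA primer. CUL4A forms the scaffold of CRL4, a family of ubiquitin ligases, CDT2 and RepID are receptors that bring targets or chromatin to CRL4, and SKP2 is a receptor of the SCF ligase. CRL4 with CDT2 and SCF with SKP2 both mark the licensing factor CDT1 for destruction, which limits replication to a round per cell cycle.

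The broad domains had a median width of 4972 bp and a widest member of 22721 bp. Most lay near the limit: 2165 were 4 to 5 kb wide, and 80 were 10 kb or more. Together they held 41.6% of all bases that the list covers on these chromosomes. The authors' fold enrichment over the control had a median of 12 in broad domains, 10.2 in regions of 2 to 4 kb and 5.99 in all narrower regions. Within the broad domains, width and fold enrichment were almost unrelated (Spearman's rho 0.103 across 4235 domains of 1 library), whereas rho was 0.689 in the narrower regions. The 3 members just inside the limit were each 4000 bp wide, at chr1:7842083-7846082, chr17:19012950-19016949 and chr2:43035220-43039219 (hg19), with fold enrichments of 8.2, 6.4 and 7.4. The 3 regions just outside it, at chr16:21962219-21966217, chr16:89892138-89896136 and chr17:40304906-40308903, were 3999, 3999 and 3998 bp wide with fold enrichments of 19.5, 10.7 and 10.1.

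The first question was how often broad domains coincide with replication origins and with CUL4A. A U2OS origin overlapped 3519 broad domains by at least 1 bp, or 83.1% (95% interval 81.9 to 84.2), against 61.0% of all H3K4me3 regions. CUL4A overlapped 2337 broad domains, or 55.2% (53.7 to 56.7), against 37.2% of all regions. Among regions of 2 to 4 kb the shares were 65.5% for origins and 34.2% for CUL4A, so that broad domains stood 17.5 percentage points (16.0 to 19.1) and 20.9 points (19.1 to 22.8) higher. These are Wilson intervals for shares and Newcombe intervals for differences, which treat neighbouring regions as independent and cover counting error only. With 1 sample per condition no p-value was computed.

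A wide region offers more bases to be met, so the same counts were made in a window of 1 kb at the centre of each region. Origins then met 2995 broad domains, or 70.7% (69.3 to 72.1), with 57.3% over all regions, and CUL4A met 1692, or 40.0%, with 33.0% over all regions. Against regions of 2 to 4 kb the difference was 10.5 points for both lists (8.77 to 12.3 for origins, 8.69 to 12.3 for CUL4A). Smaller than with whole regions, it stayed above 0 at equal window size. Origins covered 58.0% of the bases of broad domains and CUL4A 30.0%, compared with 48.7% and 20.9% in regions of 2 to 4 kb. Origins covered 704 broad domains (16.6%) from end to end and CUL4A 168 (3.97%), compared with 30.3% and 16.7% of all narrower regions. The narrower regions have a median width of 1338 bp against 4972 bp. A short region is more easily covered whole, so nothing is concluded from this contrast. Most domains with an origin held 1 origin region (2618), 818 held 2 and 83 held 3 or more.

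Both shares grew with width inside the group. Origins met 81.1% of the 3273 domains of 4 to 6 kb, 88.2% of the 720 domains of 6 to 8 kb and 94.2% (90.5 to 96.5) of the 242 domains of 8 kb or more. CUL4A met 51.2%, 65.6% and 78.1% (72.5 to 82.8) of the same classes. In the central 1 kb, CUL4A still ran from 37.7% to 44.7% and 55.8%, and origins from 69.6% to 72.6% and 80.6%, with overlapping intervals between neighbouring origin classes. Below 4 kb the CUL4A share did not rise in this way, with 34.0% of whole regions under 1 kb and 34.2% at 2 to 4 kb.

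**Figure D1:**
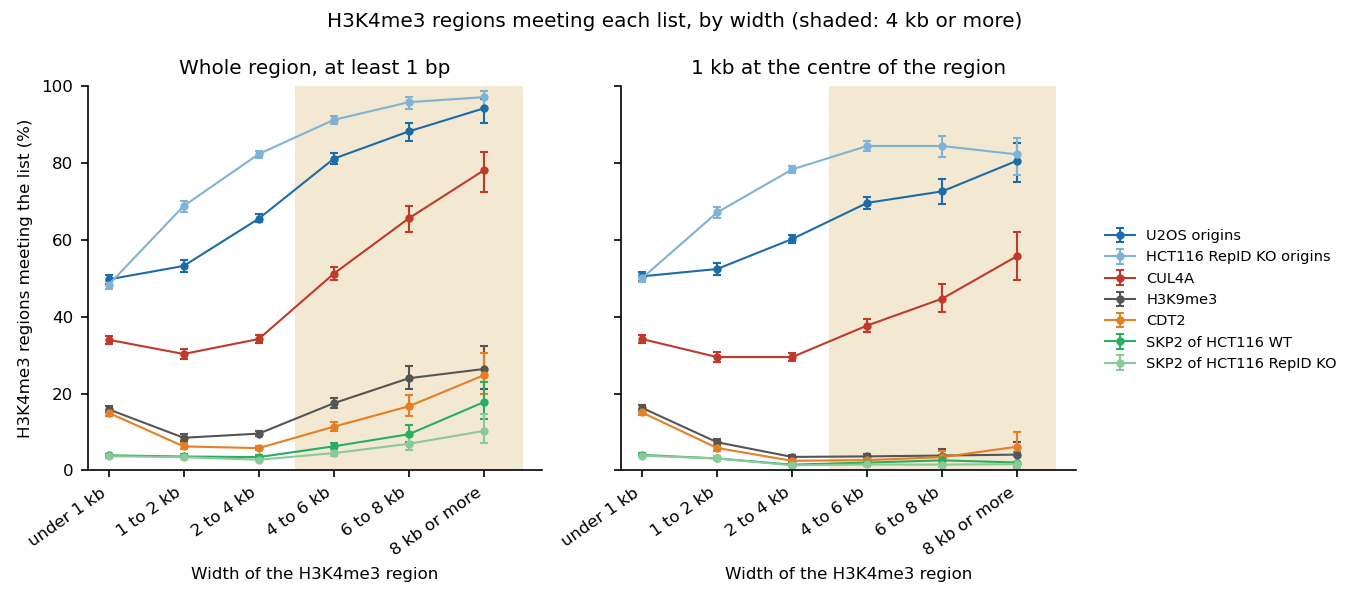
Percentage of H3K4me3 regions that meet each list (y axis) by width class (x axis), for the whole region (left) and for 1 kb at its centre (right); points are shares, bars are Wilson 95% intervals and shading marks broad domains. CUL4A climbs from 34.2% at 2 to 4 kb to 78.1% at 8 kb or more. In whole regions CDT2 is at 15.0% under 1 kb, 5.82% at 2 to 4 kb and 24.8% at 8 kb or more. H3K9me3 is at 15.9%, 9.59% and 26.4% in the same classes. Both stay under 7% at the centre of broad domains.

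The shares also moved with the authors' fold enrichment. From the lowest to the highest quartile of fold, CUL4A met 44.5%, 45.8%, 55.7% and 74.7% of broad domains and U2OS origins met 75.4%, 79.6%, 85.3% and 92.2%. Median widths of the quartiles lay between 4760 and 5134 bp. Origins of the HCT116 RepID KO cells, a list from another line, showed no such order: 92.2%, 91.3%, 93.4% and 92.4%.

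The origins of HCT116 RepID KO cells were the list most often found at these U2OS domains. They met 3910 broad domains, or 92.3% (91.5 to 93.1), against 70.0% of all H3K4me3 regions and 82.3% of those of 2 to 4 kb. In the central 1 kb they met 3569 broad domains, or 84.3%, against 67.6% of all regions and 78.3% of those of 2 to 4 kb (difference 5.98 points, 4.53 to 7.41). Unlike the U2OS origins, this central share did not climb inside the group (84.4%, 84.4% and 82.2% in the 3 width classes). Origins of both lines met 3316 domains, or 78.3%, compared with 49.9% of all regions. A further 203 had an origin of U2OS only (4.79%, against 11.2% of all regions) and 594 of HCT116 RepID KO only (14%, against 20.1%). Just 122 domains, or 2.88% (2.42 to 3.43), had no origin in either line, whereas 18.9% of all regions had none.

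Origin regions at broad domains were wider and had higher scores in both lines, but in U2OS the score per kb hardly differed. A wider origin region meets a domain more easily, and the part of this in the order was not tested. The median score of the authors was 452 for HCT116 RepID KO origins that meet a broad domain, 283 for those that meet narrower regions only and 134 for those away from H3K4me3. Their median widths were 3000, 2400 and 2000 bp, and their median scores per kb 151, 126 and 81.7. For U2OS origins the median scores were 159, 132 and 89, the median widths 3800, 3000 and 2200 bp, and the median scores per kb 43.7, 43.9 and 41.7. The scale of the scores is not stated, so the 2 lines cannot be compared by it. As a share of the origin lists, broad domains took few members: 4430 of 126050 U2OS origins (3.51%) and 4352 of 83872 HCT116 RepID KO origins (5.19%). The narrower regions, 19992 in number against 4235, were met by 8.50% and 13.9% of the same lists.

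CDT2 and H3K9me3 occupied broad domains in another way. CDT2 met 552 domains, or 13.0% (12.1 to 14.1), against 10.4% of all regions and 5.82% at 2 to 4 kb. H3K9me3 met 811, or 19.1% (18.0 to 20.4), against 13.3% and 9.59%. Regions under 1 kb met CDT2 in 15.0% and H3K9me3 in 15.9%, so neither share rose steadily with width. In the central 1 kb, however, CDT2 met only 128 domains, or 3.02% (2.55 to 3.58), and H3K9me3 only 158, or 3.73% (3.20 to 4.34). Over all H3K4me3 regions the central shares were 7.56% and 8.64%, the highest being in regions under 1 kb (15.1% and 16.3%). Against regions of 2 to 4 kb the central difference was 0.505 points for CDT2 (−0.102 to 1.16) and 0.201 points for H3K9me3 (−0.489 to 0.931), intervals that include 0. The direction against all narrower regions thus reversed between whole regions and centres.

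The position of these 2 lists within domains was mapped by distance from the domain edge. The outer 1 kb at each end makes up 37.0% of the length of broad domains, but it held 48.3% of the CDT2 bases and 52.6% of the H3K9me3 bases in them. CDT2 lay in this outer zone alone in 216 of its 552 domains (39.1%), of which 210 had it at 1 edge and 6 at both. H3K9me3 did so in 359 of 811 (44.3%), with 347 at 1 edge and 12 at both. The outer zone alone was reached in 28 of 3910 domains with HCT116 RepID KO origins (0.716%), 117 of 3519 with U2OS origins (3.32%) and 172 of 2337 with CUL4A (7.36%). SKP2 lay in this zone alone in 104 of 317 domains in HCT116 WT (32.8%) and 72 of 223 in RepID KO (32.3%). Origins and CUL4A are wider regions, with medians of 2000 to 2400 bp over each list. The medians were 554 bp for CDT2, 322 bp for H3K9me3, and 361 and 369 bp for SKP2 of WT and RepID KO. The part of width in this contrast was not tested.

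Coverage changed sharply across the border. H3K9me3 covered 2.89% of the bases in the outermost 500 bp of broad domains, 1.35% of the interior, and 0.674% and 0.485% of the first and next 500 bp outside. CDT2 covered 2.73%, 1.50%, 0.575% and 0.399% of the same places. Both lists were thus densest just inside the edge and thinnest just outside it. Regions of 2 to 4 kb had the same shape. In their outermost 500 bp and the first and next 500 bp outside, CDT2 covered 1.57%, 0.388% and 0.225%. H3K9me3 covered 1.83%, 0.357% and 0.395%. Inside broad domains, HCT116 RepID KO origins ran the other way, from 39.4% in the outermost 500 bp to 67.8% at 1.5 to 2 kb from the edge. U2OS origins rose from 51.6% to 59.5%. CUL4A rose from 25.5% to 30.0%. An edge is the limit that the authors' peak caller set. Neighbouring H3K4me3 regions covered 0% of the first 500 bp outside it, 0.945% of the next 500 bp and 5.28% between 1000 and 1500 bp. The part of this gap in the thin coverage just outside was not tested.

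**Figure D2:**
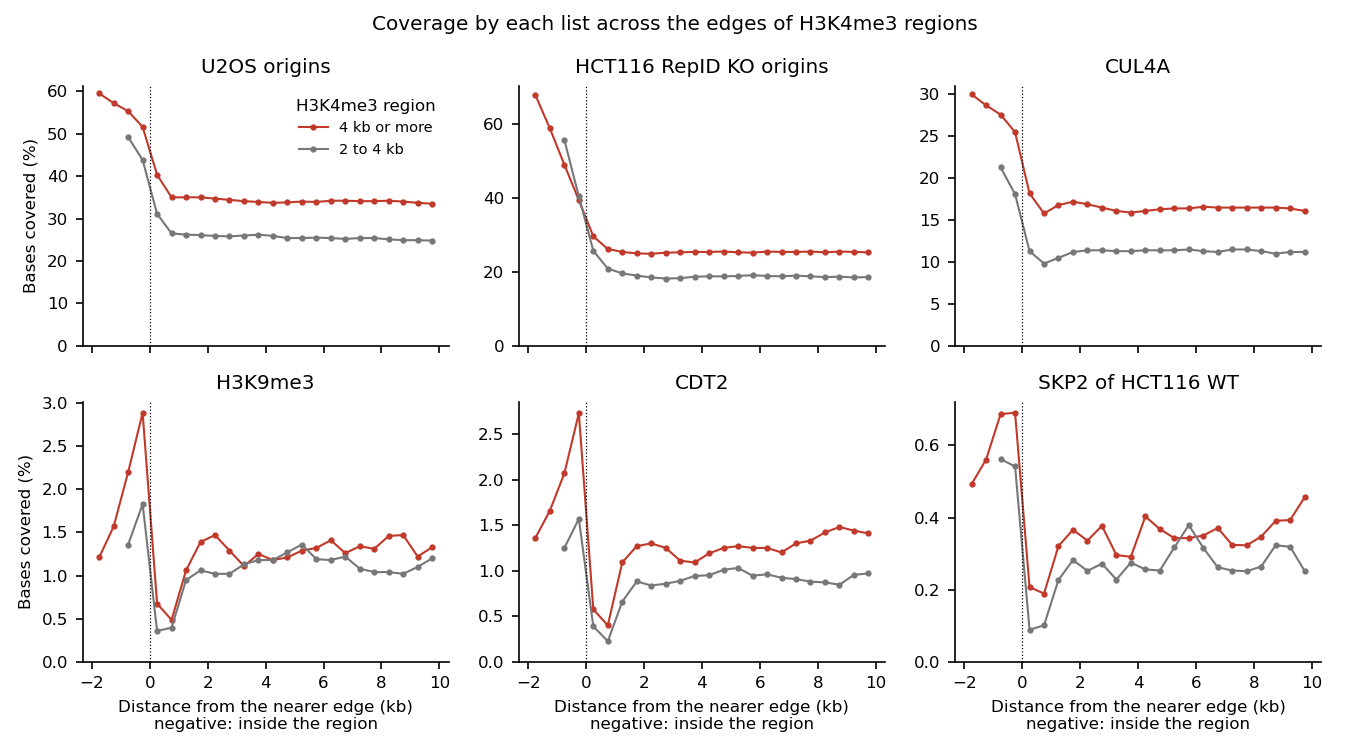
Percentage of bases covered by each of 6 lists (y axes) by distance from the nearer domain edge in bins of 500 bp (x axis in kb, inside negative), in red for broad domains and gray for regions of 2 to 4 kb. Origins and CUL4A fall from the inside outward, while CDT2 and H3K9me3 peak in the outermost bin inside, at 2.73% and 2.89% in broad domains.

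The flanks of broad domains were themselves rich in origins. Between 5 and 10 kb from the edge, U2OS origins covered a mean of 34.0% of bases, CUL4A 16.4% and HCT116 RepID KO origins 25.4%. Around regions of 2 to 4 kb these values were 25.2%, 11.3% and 18.8%, and around domains of 6 kb or more they were 42.1%, 22.6% and 33.3%. Other H3K4me3 regions covered 5.48%, 4.02% and 8.18% of the same flanks, and their part in the order was not tested. The 716 broad domains without a U2OS origin lay a median of 6852 bp from the nearest one, and 138 of them (19.3%) lay within 2 kb. Regions of 2 to 4 kb without a U2OS origin were close to this, with a median of 8109 bp and 460 of 2587 (17.8%) within 2 kb.

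CUL4A and origins were combined to see where the receptors lie. CUL4A and a U2OS origin met in 2169 domains (51.2%, against 31.4% of all regions), CUL4A without an origin in 168 (3.97%, against 5.79%), an origin without CUL4A in 1350 (31.9%, against 29.7%) and neither in 548 (12.9%, against 33.2%). CDT2 was present in 21.3% (19.7 to 23.0) of the broad domains with CUL4A and in 2.90% of those without. In regions of 2 to 4 kb these shares were 13.5% and 1.84%, whereas over all narrower regions they were 24.6% (23.6 to 25.7) and 2.36%, so the share with CUL4A was lower in broad domains than in narrower regions as a whole. Split further, CDT2 met 21.9% of domains with CUL4A and an origin, 12.5% (8.32 to 18.4) with CUL4A only, 3.19% with an origin only and 2.19% with neither. The narrower regions of these 4 groups had CDT2 in 25.7%, 19.9%, 3.60% and 1.39%, and those of 2 to 4 kb in 14.2%, 8.92%, 2.20% and 1.41%. Of the 552 domains with CDT2, 90.0% had CUL4A and 94.0% had a U2OS origin. Both shares were also high for narrower regions with CDT2, at 84.0% and 82.1%, and for those of 2 to 4 kb, at 79.2% and 85.1%.

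H3K9me3 followed the same order, with 28.3% of domains with CUL4A and an origin, 19.0% with CUL4A only, 9.41% with an origin only and 7.12% with neither. In all narrower regions these shares were 28.4%, 21.9%, 5.93% and 3.37%, so that broad domains with CUL4A were close to them and those without it stood higher. In regions of 2 to 4 kb the shares were 20.5%, 15.0%, 5.16% and 3.35%. Each was lower than in broad domains, with overlapping intervals for CUL4A only. CDT2 and H3K9me3 shared 294 domains (6.94%, against 5.99% of all regions), which is 53.3% of the domains with CDT2 and 36.3% of those with H3K9me3. In all narrower regions both shares were larger, at 59.1% and 48.0%, whereas in regions of 2 to 4 kb both were smaller, at 46.0% and 27.9%. CDT2 without H3K9me3 met 258 (6.09%, against 4.37%) and H3K9me3 without CDT2 met 517 (12.2%, against 7.30%), so that at least 1 of the pair was present in 1069 domains (25.2%, against 17.7%). Presence in the same domain need not mean the same bases. Clipped to broad domains, 85.8% of the 641 CDT2 pieces overlapped CUL4A, 88.3% a U2OS origin and 45.7% H3K9me3. In regions of 2 to 4 kb these shares were 77.7%, 81.2% and 40.8%, and for CDT2 regions away from H3K4me3 they were 55.9%, 60.8% and 42.2%. The 892 H3K9me3 pieces overlapped CUL4A in 73.0% and CDT2 in 31.4%, compared with 66.1% and 25.9% in regions of 2 to 4 kb. For H3K9me3 regions away from H3K4me3 the shares were 33.4% and 19.4%. CUL4A pieces in broad domains overlapped CDT2 in 17.1%, compared with 12.6% in regions of 2 to 4 kb and 25.8% of CUL4A regions away from H3K4me3. The shares that overlapped U2OS origins were 88.1%, 82.9% and 66.9% in the same order.

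**Figure D3:**
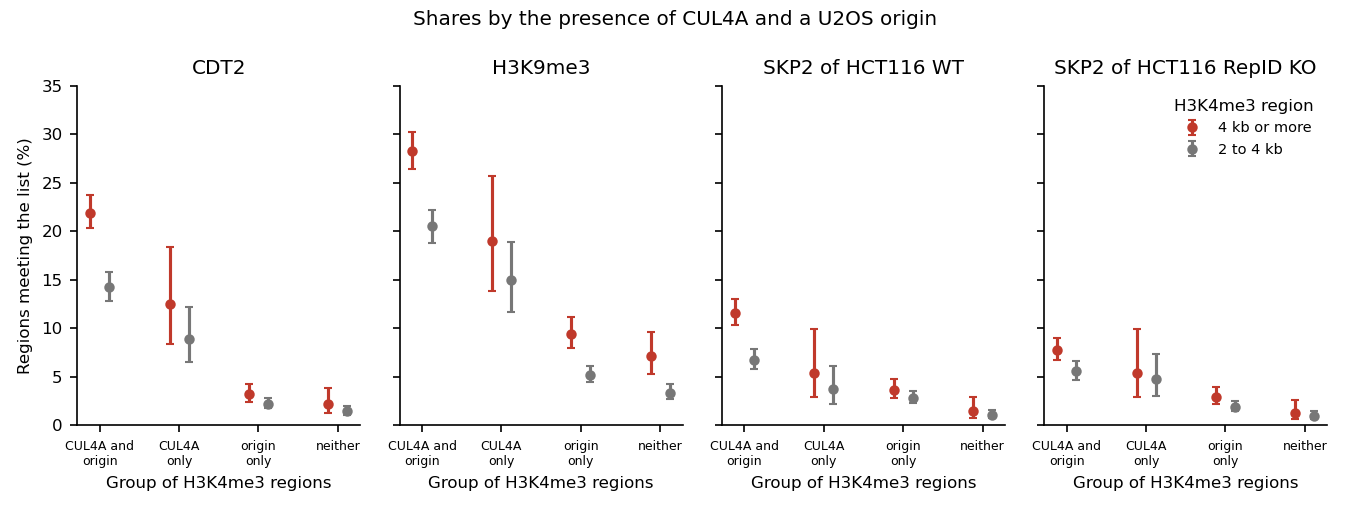
Percentage of H3K4me3 regions that meet CDT2, H3K9me3 or SKP2 (y axis) in 4 groups by the presence of CUL4A and a U2OS origin (x axis), in red for broad domains and gray for regions of 2 to 4 kb; bars are Wilson 95% intervals. Each list is most frequent where CUL4A and an origin meet, up to 28.3% for H3K9me3 in broad domains. For SKP2 of RepID KO in broad domains with CUL4A, the intervals with and without an origin overlap.

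SKP2 was rare at broad domains and was compared between HCT116 WT and RepID KO cells. SKP2 of WT cells met 317 domains, or 7.49% (6.73 to 8.32), against 4.37% of all regions. SKP2 of RepID KO cells met 223, or 5.27% (4.63 to 5.98), against 3.67%. The WT list is the shorter of the pair: 333 of its 11929 regions (2.79%, 2.51 to 3.10) met a broad domain, compared with 230 of 13518 (1.70%, 1.50 to 1.93) in RepID KO. At narrower regions the shares of the lists were 6.22% and 4.93%. With 1 library for each genotype and unknown depth, genotype and library cannot be told apart.

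The domains reached by SKP2 in the 2 genotypes were mostly different ones. SKP2 of both met 54 domains (1.28%, against 0.871% of all regions), of WT only 263 (6.21%, against 3.50%) and of RepID KO only 169 (3.99%, against 2.79%). Of the 333 WT pieces in broad domains, 35 (10.5%) overlapped a RepID KO SKP2 region, and 34 of 230 RepID KO pieces (14.8%, 10.8 to 19.9) overlapped a WT one. Away from H3K4me3 these shares were 13.3% and 11.5%, so the overlap of the 2 lists was low there too. Inside the domains SKP2 was spread almost evenly, with 39.2% of its bases in WT and 37.9% in RepID KO in the outer 1 kb zones, which hold 37.0% of domain length. Across the border it fell as CDT2 and H3K9me3 did. SKP2 of WT covered 0.691% of the outermost 500 bp inside, and 0.207% and 0.189% of the first and next 500 bp outside. SKP2 of RepID KO covered 0.556%, 0.239% and 0.142% of the same places. The central 1 kb was met in 91 domains in WT (2.15%, against 2.78% of all regions) and 66 in RepID KO (1.56%, against 2.56%). Compared with regions of 2 to 4 kb, these central shares differed by 0.630 points in WT (0.133 to 1.17) and by 0.213 points in RepID KO (−0.225 to 0.695). Both SKP2 lists were most frequent with CUL4A and a U2OS origin, at 11.6% and 7.75% (7.84% and 7.05% in narrower regions), and least with neither, at 1.46% and 1.28%. With CUL4A only, each list met 5.36% (2.84 to 9.87), an interval that holds the RepID KO value of 7.75%. In narrower regions with CUL4A only the shares were 7.62% and 6.97%, close to those with an origin. CUL4A was mapped in U2OS, so these shares are a coincidence of positions between lines. SKP2 regions that meet broad domains had lower median scores (393 in WT, 382 in RepID KO) than those at narrower regions only (590 and 544), with those away from H3K4me3 at 373 and 354.

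The widest domains show how these lists lie together. The widest, chr8:145006645-145029365 (hg19, 22721 bp, fold enrichment 12.8), sat inside a U2OS origin and inside an HCT116 RepID KO origin, with 90.3% of its bases in 3 CUL4A regions and no CDT2 or H3K9me3. The next, chr6:33379076-33400274 (21199 bp), was met by all 7 other lists, with 3 U2OS origins over 90.9% of its bases, CUL4A over 92.8%, 1 CDT2 region and 3 of H3K9me3. At chr20:56269468-56289508 (20041 bp), origins covered 83.0% and CUL4A 63.1%, without CDT2, H3K9me3 or SKP2. The domain chr1:161408884-161425465 (16582 bp) had a low fold enrichment of 4.1 yet lay wholly in an origin and a CUL4A region, and it held 3 SKP2 regions of WT cells over 13.8% of its bases. At chr17:4840266-4856693 (16428 bp), CUL4A covered only 23.3%, and 2 CDT2 and 2 H3K9me3 regions were present. At chr14:24604532-24620753 (16222 bp), origins covered 66.3% and CUL4A 71.6%.

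**Figure D4:**
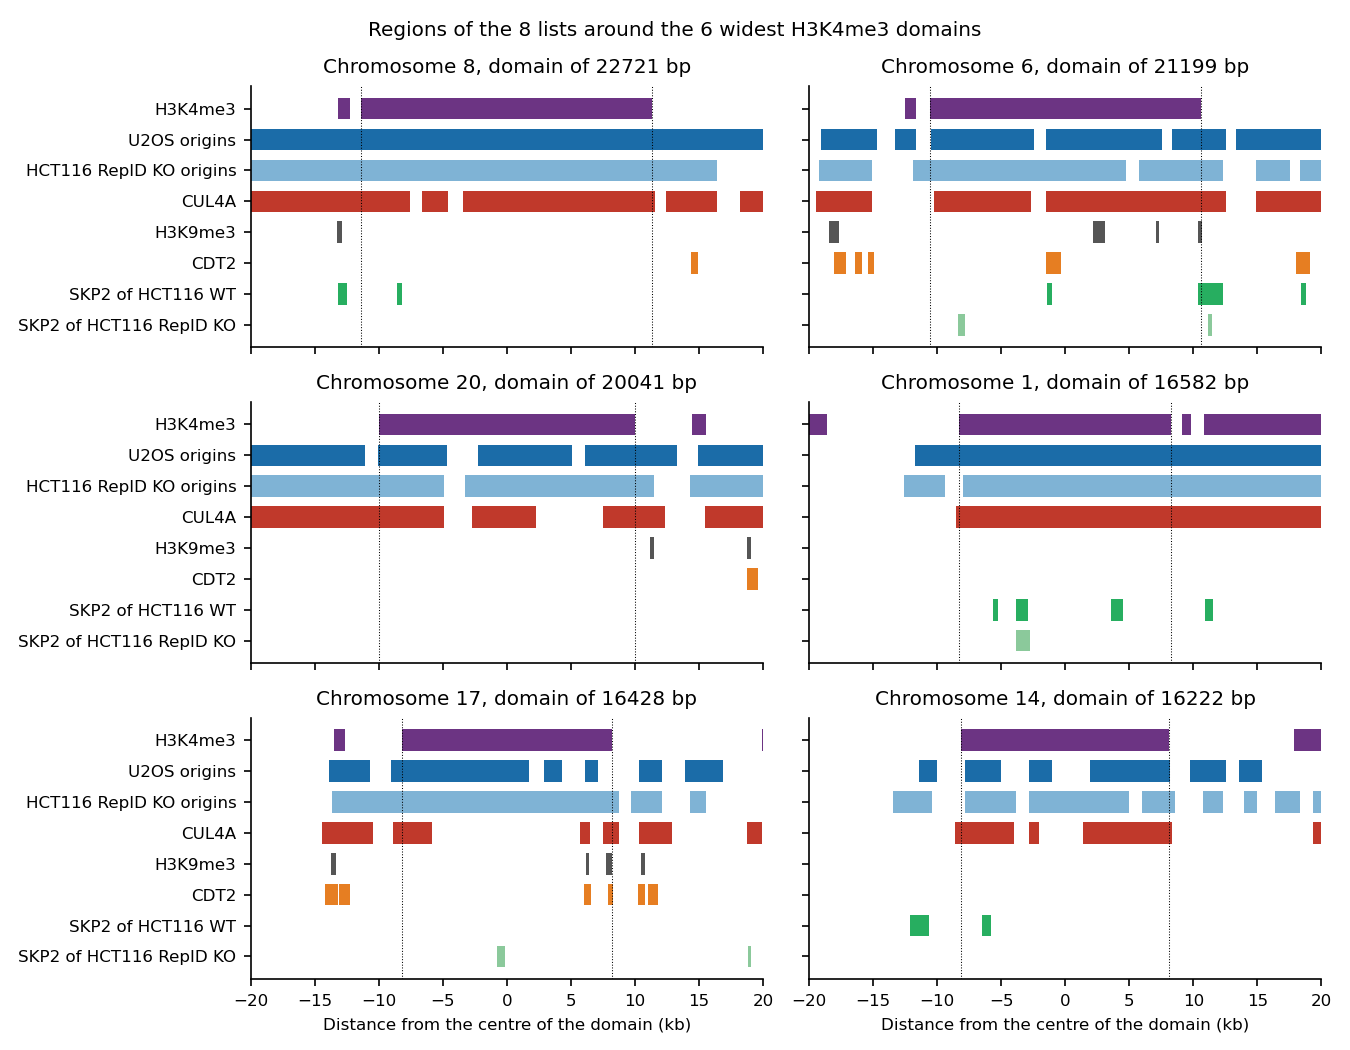
Regions of the 8 lists (rows) around the 6 widest H3K4me3 domains, by distance from the centre of the domain in kb (x axis); bars are regions and dotted lines the domain edges. U2OS origins cover 66.3% or more of each domain and CUL4A from 23.3% to all of it, whereas CDT2, H3K9me3 and SKP2 are short and absent from several.

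The next 6 in width differed in CUL4A and origins. The domain chr17:27041341-27057210 (15870 bp) had 4 CUL4A regions over 82.4% of its bases and 2 CDT2 regions. The neighbours chr11:63990938-64006234 (15297 bp) and chr11:64007153-64021758 (14606 bp) had origins over 80.2% and 90.1% and CUL4A over 63.2% and 83.2%, with neither CDT2 nor H3K9me3. At chr9:98265584-98279982 (14399 bp) an origin covered the whole domain but CUL4A only 15.3%. At chr1:44435387-44449473 (14087 bp) both covered all of it, and CDT2 and H3K9me3 each had 2 regions over 12.4% and 12.6%. The domain chr18:46466019-46480092 (14074 bp) had the lowest origin coverage of the 12, at 11.2%, with CUL4A over 46.8%.

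Exceptions to the joint pattern included wide domains. The widest with CUL4A and no U2OS origin was chr10:75004415-75014751 (10337 bp, CUL4A over 31.0%). The widest with an origin and no CUL4A was chr14:24103510-24115068 (11559 bp, fold enrichment 5.7), and the widest with neither was chr15:60681539-60691834 (10296 bp), of which an HCT116 RepID KO origin covered 56.3%.

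The 5 domains of highest fold enrichment were not the widest. They were chr19:56088650-56093318 (4669 bp, fold 59.5), chr13:19687583-19695882 (8300 bp, 57.1), chr1:54409163-54416016 (6854 bp, 54.3), chr19:59067595-59071870 (4276 bp, 37.4) and chr19:1939106-1944176 (5071 bp, 34.0). All 5 were met by a U2OS origin, CUL4A, CDT2 and an HCT116 RepID KO origin, and 4 of the 5 by H3K9me3. CDT2 covered between 8.20% and 23.0% of their bases. The 5 of lowest fold were mixed. At chr8:128919031-128923339 (fold 3.7) none of the 7 lists was present, and at chr22:24406905-24411182 (3.0) an origin covered the domain without CUL4A or CDT2. At chr3:197825847-197832195 (3.6) SKP2 of RepID KO cells covered 74.9% of the bases and SKP2 of WT cells none. The domains chr19:4180932-4185459 (3.6) and chr17:21902138-21907790 (3.8) had origins and CUL4A, the former with CDT2 and the latter with H3K9me3.

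All 7 other lists met 10 broad domains, and they met 0.211% of all H3K4me3 regions. Besides the chromosome 6 domain described above, the widest were chr17:7735832-7749713 (13882 bp), with origins over 94.2% and CUL4A over 62.5%, and chr12:6442490-6452258 (9769 bp), which lay wholly in an origin and a CUL4A region and held 3 CDT2 and 3 H3K9me3 regions. At the other end, 90 broad domains (2.13%) were met by none of the 7 lists, against 8.04% of regions of 2 to 4 kb and 16.3% of all regions. The widest of these were chr6:26192928-26201613 (8686 bp), chr10:92673751-92681086 (7336 bp) and chr10:63807438-63814215 (6778 bp), with fold enrichments of 9.6, 8.6 and 11.5. These 5 domains were chosen after their values were seen.

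Broad domains were unevenly spread along the genome. Their share of the H3K4me3 regions of a chromosome ran from 11.0% on chromosome 13 (56 of 507, 8.60 to 14.1) to 23.2% on chromosome 22 (152 of 654, 20.2 to 26.6) and 23.0% on chromosome 17. Their density was lowest on chromosome 13, at 0.487 per Mb, and highest on chromosome 19, at 4.57 per Mb, where 16.6% of regions were broad. Narrower regions had their extremes on the same chromosomes, at 3.92 and 22.9 per Mb. Chromosome 13 was also lowest in the share of broad domains with a U2OS origin (51.8%), followed by chromosomes 18 (64.9%) and 4 (65.2%), while chromosome 16 was highest (92.1%). CUL4A ranged from 25% on chromosome 13 to 73.3% on chromosome 19, and CDT2 was most frequent on chromosome 19, at 23.3%.

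**Figure D5:**
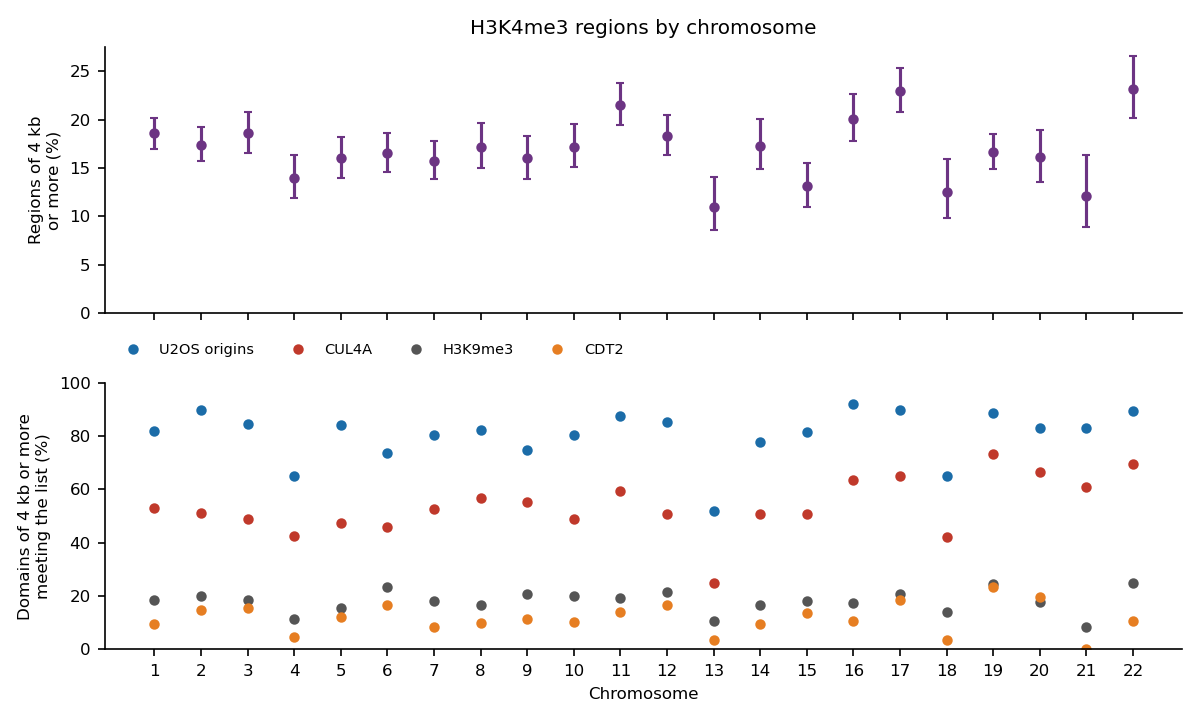
Percentage of H3K4me3 regions that are broad (top, with Wilson 95% intervals) and percentage of broad domains that meet U2OS origins, CUL4A, H3K9me3 and CDT2 (bottom, without intervals) by chromosome (x axis). Chromosome 13 is lowest for broad regions (11.0%), origins (51.8%) and CUL4A (25%).

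Few broad domains lay close together. The median gap between neighbours was 207628 bp, and 379 domains (8.95%) fell in 172 clusters with gaps of at most 10 kb, of which 27 held 3 or more. The cluster with most members was chr11:793730-845881, with 6 domains over 29962 of its 52152 bp, 6 U2OS origins, 6 CUL4A regions and 7 HCT116 RepID KO origins. At chr1:149800906-149836124, 4 domains filled 32730 of 35219 bp, with 5 origins, 6 CUL4A regions and 3 CDT2 regions. Only 17 gaps were under 1 kb.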

How the data were processed

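ChIP-Seq and nascent-strand regions of 8 samples were used as deposited, in hg19 per the submitters' processing notes, which also name MACS and SICER. For origins and CUL4A, the authors used SICER with a window of 200 bp and a gap of 600 bp (FDR 0.01 for origins) and gave each region a score of unstated scale. The deposited CDT2 and SKP2 lists also carry a score, and further SKP2 columns of unstated meaning were not used. For histone marks the paper cites SICER, but the deposited lists have the form of MACS broad peaks, with fold enrichment as a ratio, −log10 p and −log10 q. Depth is unknown, so no value was weighted by it.

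Overlaps (1 bp or more), overlaps of the central 1 kb, covered bases and distances were counted with Python 3.11.15, NumPy 2.4.6, SciPy 1.17.1 and pandas 2.3.3, and plots were drawn with matplotlib 3.10.9. Regions are not replicates, so shares have Wilson and differences Newcombe 95% intervals and no test was made. The counting was tested on 10 simulated sets, of which 0 differed from a direct count. Chromosome length was the largest end over the 8 lists. The regions named were the 12 widest, the 5 of highest and lowest fold, the widest by origin and CUL4A, and 3 on each side of the limit. Clusters were chosen by number of members, then by length, after their values were seen. The domains and lists were chosen with earlier results of these data known.

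The gene tables at hand are of GRCh38.p14, whose last gene end on chromosome 1 is 248937099, whereas the lists reach 249240800. No coordinates were converted, so genes, gene starts, marker genes, base composition and sequences were not analysed here.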

Additional observations from a re-analysis of the deposited data

How the results depend on the processing

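Values are broad minus narrower shares in percentage points for U2OS origins, CUL4A, CDT2, H3K9me3, HCT116 RepID KO origins, SKP2 of WT and SKP2 of RepID KO, which were 26.7, 21.8, 3.25, 7.10, 27.1, 3.78 and 1.94 with whole regions. Of 63 alternative values, 38 moved in size and 10 had the opposite sign. When at least 50% of a region had to be covered, the differences were 11.6, −0.242, −6.40, −6.05, 5.28, −1.51 and −1.36. This rule says little of CDT2, H3K9me3 and SKP2, whose median widths of 554, 322, 361 and 369 bp lie far below it in a broad domain (5, 0, 0 and 1 domains passed), and the CUL4A interval included 0 (−1.69 to 1.24). In the central 1 kb they were 16.2, 8.47, −5.50, −5.95, 20.2, −0.762 and −1.21. With 3 kb as the limit they were 24.4, 15.0, −0.300, 3.53, 28.3, 2.12 and 0.955, with 0 inside the CDT2 interval (−1.11 to 0.527). With 6 kb they were 29.9, 32.8, 8.70, 11.8, 27.3, 7.47 and 4.30. With only the higher-scoring part of each partner list, split at its median score, they were 27.8, 17.0, 0.649, 3.31, 30.6, 1.25 and 0.659. The CDT2 interval again included 0 (−0.185 to 1.55). Joining regions up to 1 kb apart gave 4638 broad domains of 22837 and moved none of the 7 beyond its interval. The cause of the opposite signs in the central 1 kb was not tested.

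Further comparisons were added after the data were seen. Against regions of 2 to 4 kb alone, the differences were 17.5, 20.9, 7.21, 9.56, 10.0, 4.01 and 2.47. The same comparison in the central 1 kb gave 10.5, 10.5, 0.505, 0.201, 5.98, 0.630 and 0.213. Among regions with −log10 q of at least 10 they were 19.8, 20.9, 5.97, 9.28, 13.6, 3.41 and 1.83. Origins of both lines kept a positive difference in each alternative listed, and CUL4A in each but the 50% rule. The intervals ignore differences between libraries, of which there was 1 per condition, and depth is unknown. No paired analysis was possible because each condition had 1 sample, and for the same reason no replicate could be left out. Restriction to regions with a gene start, and the share with a gene start, need gene starts of hg19 and were not run.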
